A study of Mus musculus with 6 samples.

Results

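The 10 genes described here encode receptors, a transcription factor, a feedback inhibitor, a soluble antagonist and a secreted target of interleukin-6 (IL-6) and interleukin-1 (IL-1) signalling. They were taken by name, whatever their values, from a table of 54532 genes: Il6ra, Il6st, Lifr, Osmr, Stat3, Socs3, Il1r1, Il1rap, Il1rn and Lbp. RNA sequencing had been done on primary hepatocytes of C57BL/6 mice that all received a high-fat diet for 26 weeks and were 32 to 34 weeks old. The 3 control libraries (XCON) came from Xbp1FL/FL mice, whose Xbp1 alleles are floxed and intact. The 3 knockout libraries (XCKO) came from Xbp1ΔHep mice, in which Xbp1 is deleted in hepatocytes. Its product, XBP1, is switched on by endoplasmic reticulum stress and induces genes of protein folding and secretion. The labels give neither the driver of the deletion nor a mouse for each library, so the p-values below measure the spread between these libraries. No group on another diet and no group given a cytokine was analysed here.

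IL-6 binds its receptor IL-6Rα, and the complex recruits gp130, the signalling chain encoded by Il6st. The LIF receptor and the oncostatin M receptor pair with the same chain. Janus kinases bound to gp130 then phosphorylate STAT3, which enters the nucleus and, in hepatocytes, drives genes of the acute-phase response. SOCS3 is a product of that response and blocks the gp130 complex. IL-1 binds IL-1R1, which pairs with the accessory protein IL1RAP and signals to NF-kB. The antagonist IL-1Ra, the product of Il1rn, occupies IL-1R1 without recruiting the accessory protein. LBP, the lipopolysaccharide-binding protein, is secreted by hepatocytes and delivers bacterial lipopolysaccharide (LPS) to CD14. In hepatocytes its gene is a classical target of IL-6 and IL-1 together.

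Of the 10 genes, 1 fell and 1 rose in XCKO. Il1rn was 2.41-fold lower and Lbp was 1.86-fold higher, and no other member passed the test. The test was edgeR's quasi-likelihood F test with Benjamini-Hochberg adjustment over the 14873 genes with enough counts, and a gene passed with an adjusted p under 0.05. All 10 members were tested. Of all tested genes, 9.27% passed, 5.21% as higher and 4.05% as lower in XCKO. The 3 libraries of each group did not overlap for 2 of the 10 members, Il1rn and Lbp, and for 35.7% of all tested genes. With 10 genes, neither share is a result particular to the members. The median log2 fold change (XCKO minus XCON) of the 10 was −0.21, with 6 negative and 4 positive values, beside −0.05 for all tested genes. The members' median was 0.23 without XCON 3, −0.47 with scaling by library totals alone and −0.04 with an offset for gene length.

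**Figure D1:**
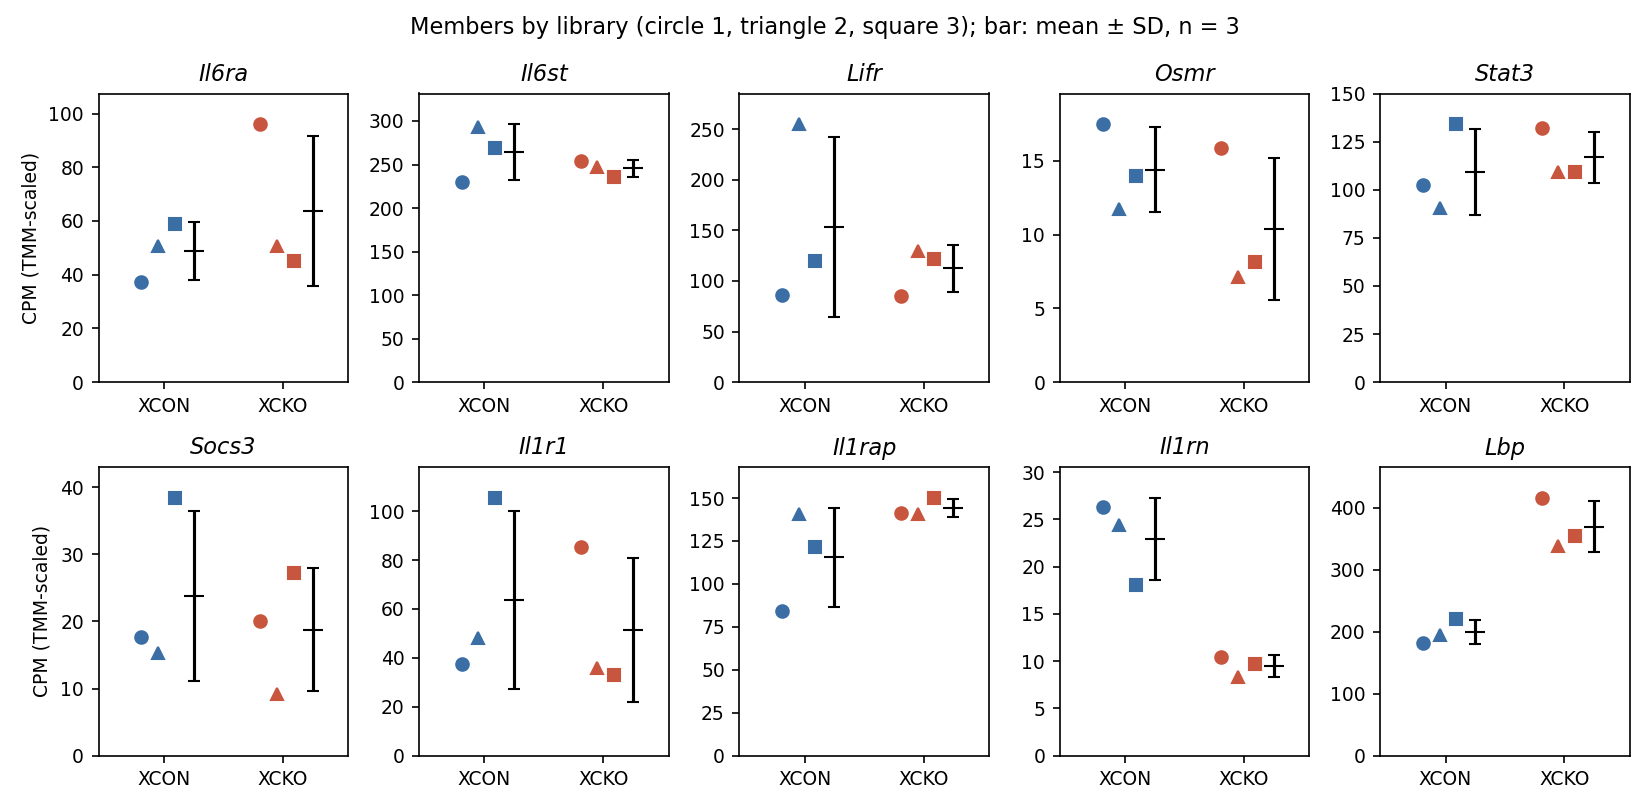
Level of each of the 10 genes in each library, in CPM, which are counts divided by library size after TMM scaling (vertical axes start at 0 and differ between panels), with the mean and SD of the 3 libraries of each group. Only in the panels of Il1rn and Lbp do the XCON and XCKO points not overlap; in Il1r1 and Socs3 the highest point is XCON 3.

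The libraries held 23919355 to 27240079 counts. Levels are given as CPM, the usual library-size scaling of counts, computed with edgeR's TMM factors. Xbp1 itself was at 171, 294 and 319 CPM in XCON 1 to 3 and at 59.0, 39.3 and 67.4 in XCKO 1 to 3. That is a log2 fold change of −2.24 ± 0.29 (SE; adjusted p of 0.00837, edgeR). The 10 hepatocyte markers were detected in every library, with summed levels of 66655 to 90402 CPM in XCON and 91168 to 119559 CPM in XCKO. Other liver cells also left RNA in the libraries. The 12 macrophage markers summed to 1422 to 2779 CPM in XCON and 502 to 1415 CPM in XCKO, and 1 of the 12 (Cd68) passed, as lower. An unadjusted edgeR p under 0.05 was found for 5 of the 12, and 5 passed as lower in DESeq2 and 1 in limma-voom. Cd68 lost its call without XCON 1, XCON 2 or XCKO 1 (adjusted p of 0.0748 to 0.0809 in the edgeR test). The 9 stellate cell markers summed to 289 to 596 CPM in XCON and 117 to 294 CPM in XCKO, and 3 of the 9 (Pdgfrb, Lrat and Acta2) passed, as lower. For 7 of the 9 the unadjusted edgeR p was under 0.05, and 6 passed as lower in DESeq2 and 2 in limma-voom. Without XCON 3 or without XCKO 3, 0 of the 9 passed edgeR's test. Mitochondrial genes took 22.8% of the counts in XCON 1 and 8.99% to 13.1% in the other libraries. Globin genes summed to 9.13 to 18.6 CPM in 4 libraries but to 329 CPM in XCKO 1 and 825 CPM in XCKO 3. In bulk samples such as these, fewer cells of a type and less RNA per cell cannot be told apart.

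Il1rn was the member with the smallest adjusted p. The gene lies on chromosome 2 (24336853 to 24351494, plus strand, GRCm38/mm10), and it has 6 annotated transcripts and 3 RefSeq starts. The gene is known to encode a secreted form and intracellular forms of the antagonist. The deposited counts merge them, so the values do not say which form was lower. The sequences just before the first pair of RefSeq starts are shown because they are the nearest upstream DNA of the one member that fell (RefSeq, GRCm38.p6). Each runs 5′ to 3′ on the plus strand from 250 bases before the start and ends before the first annotated exon base. Both are wholly in lower case because none of the 4 motifs searched, given further on, occurred in them.
Il1rn start 1, chr2:24336610-24336852: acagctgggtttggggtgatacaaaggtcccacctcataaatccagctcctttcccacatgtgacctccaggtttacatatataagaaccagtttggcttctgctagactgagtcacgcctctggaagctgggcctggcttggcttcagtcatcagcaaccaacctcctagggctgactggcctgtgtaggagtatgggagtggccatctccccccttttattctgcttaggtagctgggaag
Il1rn start 2, chr2:24345041-24345287: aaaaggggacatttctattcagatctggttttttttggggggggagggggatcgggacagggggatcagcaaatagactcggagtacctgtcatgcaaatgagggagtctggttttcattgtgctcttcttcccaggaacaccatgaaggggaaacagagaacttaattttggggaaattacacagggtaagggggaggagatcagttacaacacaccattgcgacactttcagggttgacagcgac

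Il1rn stood at 26.3, 24.4 and 18.1 CPM in XCON 1 to 3, a mean of 22.9 ± 4.33 (SD, n = 3). In XCKO 1 to 3 it stood at 10.5, 8.27 and 9.73 CPM, a mean of 9.49 ± 1.13 (SD, n = 3). Every XCKO library lay below every XCON library, and XCON 3 was the lowest of the controls. The log2 fold change was −1.27 ± 0.18 (SE), with a 95% interval of −1.69 to −0.85 and an adjusted p of 0.0104 in the edgeR test. The raw counts behind these levels ran from 534 to 684 in XCON and from 213 to 259 in XCKO. In the authors' deposited table the log2 fold change of Il1rn was −1.23, with an adjusted p of 8.94e-06.

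Macrophages make IL-1Ra as well as hepatocytes, so the summed macrophage markers are given for each library beside Il1rn. They were at 1927, 2779 and 1422 CPM in XCON 1 to 3 and at 1232, 502 and 1415 CPM in XCKO 1 to 3. All 12 markers had a negative log2 fold change, with a median of −0.90. Per 1000 CPM of these markers, Il1rn was at 13.7, 8.79 and 12.7 CPM in XCON 1 to 3 and at 8.51, 16.5 and 6.88 CPM in XCKO 1 to 3, so on this ratio the groups overlapped. XCON 3 and XCKO 3 had nearly the same macrophage sum, and Il1rn was at 18.1 CPM in the first and 9.73 CPM in the second. That is a single pair of libraries, and XCKO 2 was the lowest library in both macrophage sum and Il1rn. Neutrophils are another source of IL-1Ra. Their markers, 7 of 8 of which had enough counts to test, summed to 15.3 to 38.8 CPM in XCON and 5.82 to 83.1 CPM in XCKO. The part of either cell type in the Il1rn difference was not tested.

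**Figure D2:**
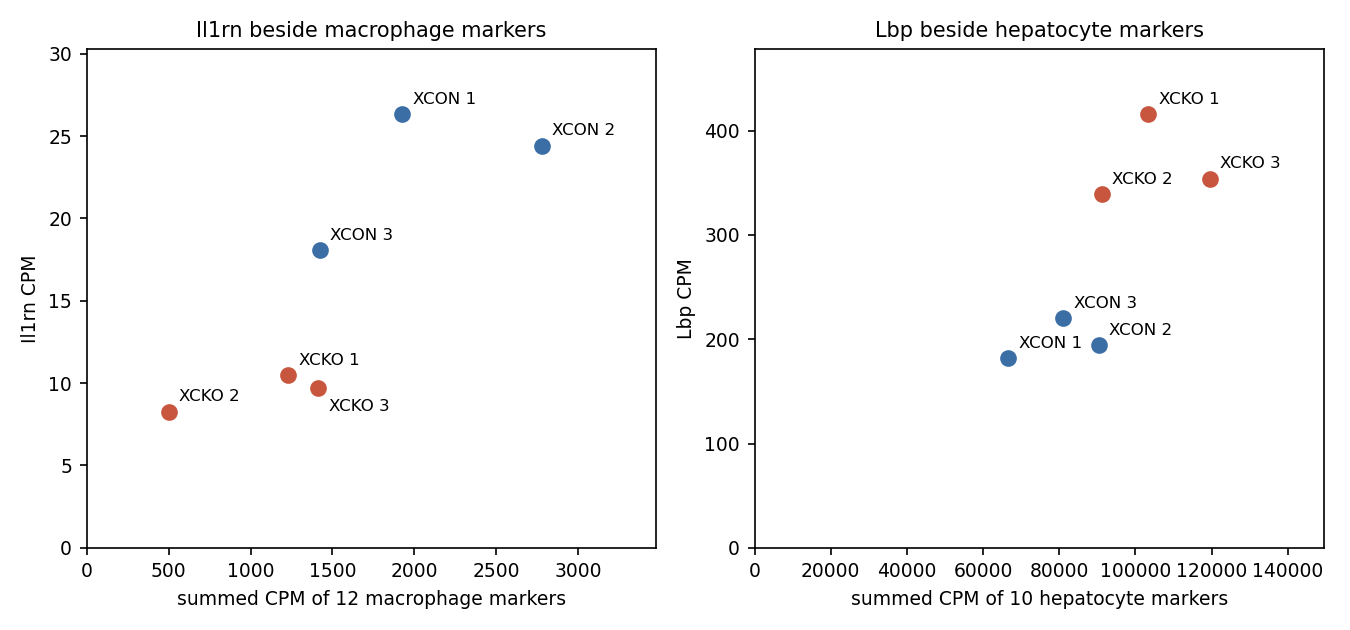
Il1rn against the summed level of 12 macrophage markers (left) and Lbp against the summed level of 10 hepatocyte markers (right), both axes in CPM from 0, one point per library. XCON 3 and XCKO 3 sit at 1422 and 1415 CPM of macrophage markers with different Il1rn levels, and XCKO 2 is lowest on both axes of that panel. The 3 XCKO points sit above the 3 XCON points in Lbp.

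Lbp, on chromosome 2 (158306493 to 158332852, plus strand), was the most abundant of the 10 genes per length. It stood at 182, 194 and 220 CPM in XCON 1 to 3, a mean of 199 ± 19.4 (SD, n = 3). In XCKO 1 to 3 it stood at 416, 339 and 354 CPM, a mean of 369 ± 40.7 (SD, n = 3). The groups did not overlap, and the spread within each was small beside the gap between 220 and 339 CPM. The log2 fold change was 0.89 ± 0.17 (SE), with a 95% interval of 0.51 to 1.28 and an adjusted p of 0.0205 in the edgeR test. The authors' deposited table gives Lbp a log2 fold change of 0.93 with an adjusted p of 2.4e-05. The call depended on single libraries: the adjusted p in edgeR's test was 0.0535 without XCON 1, 0.0529 without XCON 2, 0.0571 without XCKO 1 and 0.0588 without XCKO 3. The direction and size changed little in those fits, as the log2 fold change stayed between 0.81 and 1.00 when any single library was left out.

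The hepatocyte markers moved in the same direction as Lbp. All 10 had a positive log2 fold change, with a median of 0.40, and 1 of them (Asgr1) passed. With library totals alone the median was 0.13, and 1 of the 10 was negative. Per 1000 CPM of the summed hepatocyte markers, Lbp was at 2.73, 2.15 and 2.71 CPM in XCON 1 to 3 and at 4.02, 3.72 and 2.96 CPM in XCKO 1 to 3. On that ratio every XCKO library lay above every XCON library, XCKO 3 by the smallest margin. Alb (albumin) made up most of that sum in every library, so the ratio to the sum and the ratio to Alb are not independent. Against single transcripts of the sum, the picture differed from one transcript to the other. Lbp over Alb, times 1000, was 4.02, 3.15 and 4.07 in XCON 1 to 3 and 5.95, 5.93 and 4.15 in XCKO 1 to 3, without overlap. Lbp over Ttr (transthyretin), times 1000, was 35.1, 37.4 and 46.7 in XCON 1 to 3 and 54.7, 44.9 and 40.9 in XCKO 1 to 3, so on this ratio the groups overlapped. The part of hepatocyte content in the Lbp difference was not tested.

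The receptor chains of the IL-6 family did not pass the test. Il6ra, the IL-6 binding chain, was at 37.4, 50.6 and 58.7 CPM in XCON 1 to 3 and at 95.9, 50.7 and 45.0 CPM in XCKO 1 to 3. XCKO 1 stood apart, and the other XCKO libraries lay inside the XCON range. Its log2 fold change was 0.38 ± 0.31 (SE, 95% interval −0.32 to 1.09), and the adjusted p was 0.436 in the edgeR test, and without XCKO 1 the log2 fold change was −0.023.
Il6st, which encodes gp130, was the steadiest receptor gene. It was at 230, 294 and 269 CPM in XCON 1 to 3 and at 255, 247 and 236 CPM in XCKO 1 to 3, so all XCKO values lay within the XCON range. In the edgeR test Il6st had a log2 fold change of −0.11 ± 0.16 (SE, 95% interval −0.48 to 0.27), and the adjusted p was 0.698.
The chains that pair with gp130 for other ligands differed more between libraries. Lifr, the LIF receptor, was at 86.1, 255 and 120 CPM in XCON 1 to 3 and at 85.4, 129 and 122 CPM in XCKO 1 to 3. XCON 2 lay far above the other libraries, which overlapped between the groups. Lifr had a log2 fold change of −0.45 ± 0.39 (SE, 95% interval −1.36 to 0.46), and the adjusted p was 0.479 in the edgeR test, and without XCON 2 the log2 fold change was 0.13. Osmr, the oncostatin M receptor and the least abundant member per length (FPKM, given further on), was at 17.5, 11.7 and 14.0 CPM in XCON 1 to 3 and at 15.9, 7.10 and 8.17 CPM in XCKO 1 to 3. The groups overlapped through XCKO 1. Its log2 fold change was −0.47 ± 0.31 (SE, 95% interval −1.19 to 0.24), and the adjusted p was 0.347 in the edgeR test. Without XCKO 1 the log2 fold change of Osmr was −0.90 (adjusted p of 0.0595 in the edgeR test).

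Stat3, the transcription factor downstream of gp130, was at 103, 90.6 and 134 CPM in XCON 1 to 3 and at 132, 109 and 109 CPM in XCKO 1 to 3. The groups overlapped over most of their range. Stat3 had a log2 fold change of 0.10 ± 0.19 (SE, 95% interval −0.32 to 0.52), and the adjusted p was 0.747 in the edgeR test. Transcript levels do not measure STAT3 phosphorylation, through which the protein is activated. Socs3, the feedback inhibitor, was at 17.7, 15.3 and 38.4 CPM in XCON 1 to 3 and at 20.0, 9.12 and 27.2 CPM in XCKO 1 to 3. The library numbered 3 was the highest in each group, and the ratio of highest to lowest library was 2.51 in XCON and 2.99 in XCKO. For Socs3 the log2 fold change was −0.34 ± 0.48 (SE, 95% interval −1.47 to 0.78), and the adjusted p was 0.667 in the edgeR test. Without XCON 3 the log2 fold change was 0.19.
Of the other SOCS family genes, Socs2 and Cish were also highest in XCON 3, and the rest are not described here. Socs2 was at 9.47, 15 and 56.5 CPM in XCON 1 to 3 and at 6.19, 4.39 and 10.4 CPM in XCKO 1 to 3. Cish was at 6.04, 10.2 and 50.3 CPM in XCON 1 to 3 and at 15.1, 7.34 and 24.6 CPM in XCKO 1 to 3. Socs2 and Cish were chosen for naming after their values were seen, and neither passed the edgeR test (adjusted p of 0.154 and 0.744).

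On the IL-1 side, Il1r1, the signalling receptor, was at 37.4, 48.1 and 105 CPM in XCON 1 to 3 and at 85.4, 35.8 and 33.0 CPM in XCKO 1 to 3. One library in each group, XCON 3 and XCKO 1, lay well above its partners. The log2 fold change was −0.31 ± 0.50 (SE, 95% interval −1.50 to 0.88), and the adjusted p was 0.714 in the edgeR test. Without XCON 3 the log2 fold change was 0.27, and without XCKO 1 it was −0.88.
The library XCKO 1 was the highest of its group in 7 of the 10 members: Il6ra, Il6st, Osmr, Stat3, Il1r1, Il1rn and Lbp. It also held the highest sum of the 8 sinusoidal endothelial markers, at 830 CPM beside 394 and 530 CPM in XCKO 2 and 3 and 522 to 541 CPM in XCON. Of these 8 markers 0 passed in edgeR's test, DESeq2 or limma-voom, and 0 had an unadjusted edgeR p under 0.05. Those tests compare the groups, so they cannot decide whether a single library held more endothelial RNA. The part of endothelial cells in the XCKO 1 values was not tested.
Il1rap, the accessory chain, was at 84.0, 141 and 122 CPM in XCON 1 to 3 and at 142, 141 and 150 CPM in XCKO 1 to 3. XCON 1 was the low library, and XCON 2 reached the XCKO level. The log2 fold change was 0.32 ± 0.20 (SE, 95% interval −0.14 to 0.78), and the adjusted p was 0.322 in the edgeR test.

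**Figure D3:**
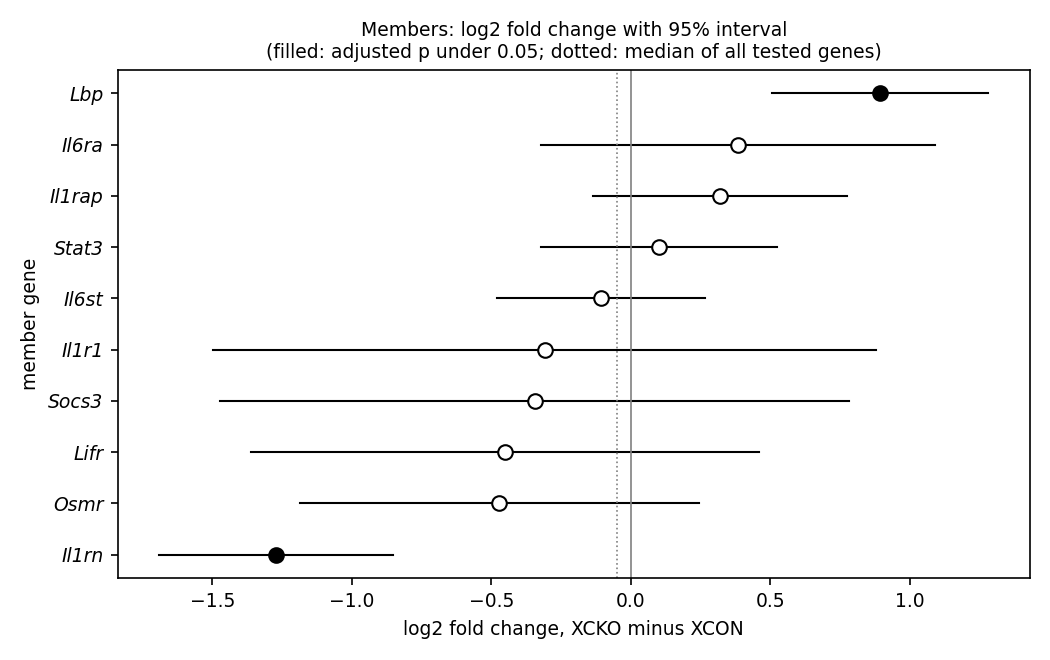
Log2 fold change (XCKO minus XCON) of the 10 genes with 95% intervals; filled points passed an adjusted p of 0.05 and the dotted line is the median of all tested genes (−0.05). The intervals of Il1rn and Lbp lie on one side of 0, and those of Il1r1, Socs3 and Lifr are the widest.

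The spread among replicates differed greatly between the genes. In XCON the coefficient of variation was 58.1% for Lifr, 57.4% for Il1r1 and 53.3% for Socs3, and 25.0% or less for the other members. In XCKO it was 57.3% for Il1r1, 48.5% for Socs3, 46.1% for Osmr and 43.7% for Il6ra, beside 3.88% for Il6st and 3.61% for Il1rap. For the genes with the widest intervals, changes smaller than those intervals were not detectable with these 3 libraries per group.

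Levels per length were compared with the authors' deposited FPKM values (fragments scaled by exon length and library size). In XCON the order of group means was Lbp at 40.1 FPKM, Il6st at 23.2, Lifr at 13.8, Stat3 at 11.2, Il1rap at 9.90, Il1r1 at 9.81, Socs3 at 8.07, Il6ra at 5.52, Il1rn at 4.03 and Osmr at 1.16 FPKM. In that order the ranges of Lbp and Il6st over the XCON libraries did not overlap, nor did those of Il1rn and Osmr. The ranges of every other pair of neighbours overlapped, although Il6st lay above Lifr within each XCON library. In XCKO the means were 76.4 FPKM for Lbp, 22.1 for Il6st, 12.7 for Il1rap, 12.3 for Stat3, 10.4 for Lifr, 8.07 for Il1r1, 7.38 for Il6ra, 6.53 for Socs3, 1.71 for Il1rn and 0.857 FPKM for Osmr. There Lbp, Il6st, Il1rn and Osmr were each separated from both neighbours, and the 6 genes between Il6st and Il1rn formed one overlapping range. The ratio of antagonist to receptor transcript, Il1rn over Il1r1 in FPKM, was 0.808, 0.583 and 0.197 in XCON 1 to 3 and 0.141, 0.265 and 0.339 in XCKO 1 to 3. These ratios overlapped between the groups through XCON 3, the library with the highest Il1r1 level.

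Around the members, 86 other pathway genes were listed by role, of which 80 were tested. In that set 1 gene rose and 5 fell, and 65 of the 80 had a negative log2 fold change, beside 7963 of all 14873 tested genes. Of all tested genes, 5.21% passed as higher and 4.05% as lower, and the groups did not overlap for 35.7%. These shares are the background for the set and for each list below. The set's median was −0.31, beside −0.05 for all tested genes. The number of falls depended on single libraries. It was 0 without XCON 1 or XCKO 2, 1 without XCON 3, XCKO 1 or XCKO 3, and 4 without XCON 2. These counts include genes outside the 5 (Clcf1, Pias1, Rel, Nfkb1 and Nfkbie, described below). Without XCON 2, only Clcf1 and Rel of the 5 passed, and the others had an adjusted p of 0.0862 to 0.111 in the edgeR test. The single falls without XCKO 1 and without XCKO 3 were in lists with 0 falls in the full fit. Scaling by library totals alone gave 27 lower and 1 higher, with the median of the set at −0.58 and that of all tested genes at −0.31. Every XCKO macrophage marker sum lay below every XCON sum, with XCKO 3 at 1415 CPM close to XCON 3 at 1422 CPM. Stellate marker sums were lower in most XCKO libraries but overlapped through XCKO 1 at 294 CPM and XCON 1 at 289 CPM. Cholangiocyte markers, 5 of 6 of which were tested, summed to 583, 251 and 272 CPM in XCON 1 to 3 and to 89.3, 82.5 and 162 CPM in XCKO 1 to 3, with a median log2 fold change of −1.74. The 8 lymphocyte markers summed to 115, 105 and 55.1 CPM in XCON 1 to 3 and to 31.1, 15.8 and 52.5 CPM in XCKO 1 to 3, with a median of −1.48. For both lists every XCKO sum lay below every XCON sum, although no single marker passed edgeR's test (0, against 5 cholangiocyte and 1 lymphocyte markers with an unadjusted p under 0.05, 4 and 1 in DESeq2, and 1 and 0 in limma-voom). The part of these 4 cell types in the pathway differences was not tested.

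Among 9 ligands of the IL-6 family, 5 had enough counts to test, and 1 fell. Clcf1, a ligand of the ciliary neurotrophic factor receptor complex, was at 12.9, 6.16 and 6.09 CPM in XCON 1 to 3 and at 2.63, 2.37 and 3.67 CPM in XCKO 1 to 3. The groups did not overlap (log2 fold change −1.54 ± 0.35 SE, adjusted p of 0.032 in the edgeR test). The call was lost without XCON 1 or any one of the XCKO libraries (adjusted p of 0.0708 to 0.0849). Il6 itself was too low to test. It had 3, 6 and 5 counts in XCON 1 to 3 and 0 counts in each XCKO library, where a count of 0 allows up to 3 counts per library.
The other receptors of both families numbered 9, of which 7 were tested and 1 rose. Sigirr, an inhibitory receptor of the IL-1 family, was at 19.7, 19.3 and 15.7 CPM in XCON 1 to 3 and at 32.1, 32.6 and 32.8 CPM in XCKO 1 to 3. The XCKO values were nearly equal and all above XCON. Sigirr passed with a log2 fold change of 0.83 ± 0.14 (SE; adjusted p of 0.0153 in the edgeR test) and did so under all 16 alternatives run.

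None of the 6 genes for IL-1 family ligands, their processing and IL-18 binding protein passed edgeR's test (0, against 3 with an unadjusted p under 0.05, 3 in DESeq2 and 0 in limma-voom). All 6 had a negative log2 fold change. Il33, an alarmin, had the smallest p, at 5.77, 2.75 and 3.89 CPM in XCON 1 to 3 and 1.46, 1.86 and 2.03 CPM in XCKO 1 to 3 (adjusted p of 0.0581 in the edgeR test). Il1b, named after its values were seen, was at 15.4, 14.8 and 12.9 CPM in XCON 1 to 3 and at 4.86, 3.14 and 14.8 CPM in XCKO 1 to 3. XCKO 3 thus reached the XCON level of Il1b while XCKO 1 and 2 lay below it.
Of the 9 Janus kinases and other STAT factors, 0 passed edgeR's test, with 3 at an unadjusted p under 0.05 and 0 in DESeq2 and limma-voom. Stat2, a factor of interferon signalling, had the smallest p (adjusted p of 0.0971 in the edgeR test) and a log2 fold change of −0.64.
Among 17 negative regulators and shedding proteases, 1 fell. Pias1, which encodes an inhibitor of activated STAT proteins, was at 19.9, 24.9 and 21.5 CPM in XCON 1 to 3 and at 14.5, 15.8 and 13.9 CPM in XCKO 1 to 3. Pias1 had a log2 fold change of −0.59 ± 0.15 (SE; adjusted p of 0.0401 in the edgeR test), and the call was lost without any one of the 6 libraries (0.0693 to 0.114).

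Downstream of IL-1R1, none of the 19 adaptors and kinases passed edgeR's test (0, against 6 with an unadjusted p under 0.05, 1 in DESeq2 and 0 in limma-voom). Irak2, a kinase of the receptor complex, had the smallest p (adjusted p of 0.0655 in the edgeR test) and a log2 fold change of −0.44. Of the 11 genes for NF-kB subunits and feedback inhibitors, 3 fell, beside 4.05% of all tested genes, and the list's median was −0.59. Rel, the gene for the subunit c-Rel, was at 20.1, 15.8 and 18.6 CPM in XCON 1 to 3 and at 11, 10.6 and 10.9 CPM in XCKO 1 to 3 (log2 fold change −0.75 ± 0.15 SE, adjusted p of 0.0231 in the edgeR test).
Nfkb1, which encodes the p50 precursor, was at 47.0, 43.2 and 44.4 CPM in XCON 1 to 3 and at 35.3, 25.1 and 29.2 CPM in XCKO 1 to 3 (log2 fold change −0.59 ± 0.16 SE, adjusted p of 0.0487 in the edgeR test). Nfkbie, the gene for the inhibitor IκBε, was at 10.1, 7.22 and 6.49 CPM in XCON 1 to 3 and at 4.49, 3.73 and 4.50 CPM in XCKO 1 to 3 (log2 fold change −0.90 ± 0.24 SE, adjusted p of 0.0468 in the edgeR test). None of the 3 genes overlapped between the groups, as was so for 35.7% of all tested genes. Rel kept its call only without XCON 2, and Nfkb1 and Nfkbie lost theirs without any one of the 6 libraries. Nfkbia, an NF-kB target that encodes IκBα, had a log2 fold change of −0.05 ± 0.18 (SE), and was named after its values were seen.

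LBP hands LPS to CD14 and to the receptor complex of TLR4. None of the 6 genes listed for LPS recognition passed edgeR's test (0, against 3 with an unadjusted p under 0.05, 2 in DESeq2 and 0 in limma-voom), and all 6 had a negative log2 fold change while that of Lbp was positive. Tlr4 was at 10.4, 14.4 and 9.06 CPM in XCON 1 to 3 and at 6.92, 2.10 and 4.71 CPM in XCKO 1 to 3 (adjusted p of 0.0776 in the edgeR test). Cd14, named after its values were seen, was at 38.9, 22.4 and 23.3 CPM in XCON 1 to 3 and at 17.4, 6.17 and 16.3 CPM in XCKO 1 to 3 (adjusted p of 0.123 in the edgeR test). In both genes every XCKO library lay below every XCON library. Both are abundant in macrophages, whose markers were given above beside Il1rn, and the part of these cells was not tested.

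Of 31 acute-phase and STAT3 target genes other than the members, 3 rose, 1 fell and 27 did not pass. An unadjusted edgeR p under 0.05 was found for 14 of the 31, beside 4421 of all 14873 tested genes. The groups did not overlap for 11 of the 31, beside 35.7% of all tested genes. The median log2 fold change was 0.21 with TMM scaling and −0.06 with library totals alone. Saa4, a constitutive serum amyloid A, was at 179, 247 and 277 CPM in XCON 1 to 3 and at 512, 592 and 783 CPM in XCKO 1 to 3 (log2 fold change 1.42 ± 0.24 SE, adjusted p of 0.0147 in the edgeR test). Fgl1, the gene for the hepatokine fibrinogen-like 1, was at 311, 292 and 286 CPM in XCON 1 to 3 and at 781, 484 and 882 CPM in XCKO 1 to 3 (log2 fold change 1.27 ± 0.24 SE, adjusted p of 0.0191 in the edgeR test). Both genes were separated between the groups. The call of Saa4 held under all 16 alternatives, and that of Fgl1 was lost without XCON 2, XCON 3 or XCKO 3 (0.051, 0.0561 and 0.0617).
Orm3, one of the near-identical orosomucoid genes between which reads may be divided, was named after its values were seen. It was at 28.2, 17.2 and 31.0 CPM in XCON 1 to 3 and at 42.9, 43.5 and 52.7 CPM in XCKO 1 to 3 (log2 fold change 0.86 ± 0.22 SE, adjusted p of 0.0439 in the edgeR test). Its call was lost without any one of the 6 libraries. Timp1, an inhibitor of metalloproteinases that stellate cells also express, was the gene that fell, from 2.04, 3.85 and 3.08 CPM in XCON 1 to 3 to 0.607, 0.776 and 0.605 CPM in XCKO 1 to 3 (log2 fold change −2.16 ± 0.38 SE, adjusted p of 0.0163 in the edgeR test). Without XCKO 3 its adjusted p was 0.0581.
Several classical inducible genes of the response did not pass. Saa1, which shares close sequence with Saa2, was at 256, 167 and 227 CPM in XCON 1 to 3 and at 366, 307 and 657 CPM in XCKO 1 to 3 (adjusted p of 0.0663 in the edgeR test). Every XCKO library lay above every XCON library in Saa1. Fgb, the fibrinogen beta chain, had a log2 fold change of 0.18 ± 0.24 (SE). Hamp, the iron hormone hepcidin, was at 241, 749 and 760 CPM in XCON 1 to 3 and at 58.3, 344 and 19.7 CPM in XCKO 1 to 3 (adjusted p of 0.288 in the edgeR test). Saa1, Fgb and Hamp were named after their values were seen, and Hamp overlapped between the groups through XCON 1 and XCKO 2. With TMM scaling the hepatocyte marker sums given above were higher in every XCKO library. The closest pair was XCON 2 at 90402 CPM and XCKO 2 at 91168 CPM. With library totals alone the median log2 fold change of these markers was 0.13, as given above. The part of hepatocyte content in the acute-phase differences was not tested.

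**Figure D4:**
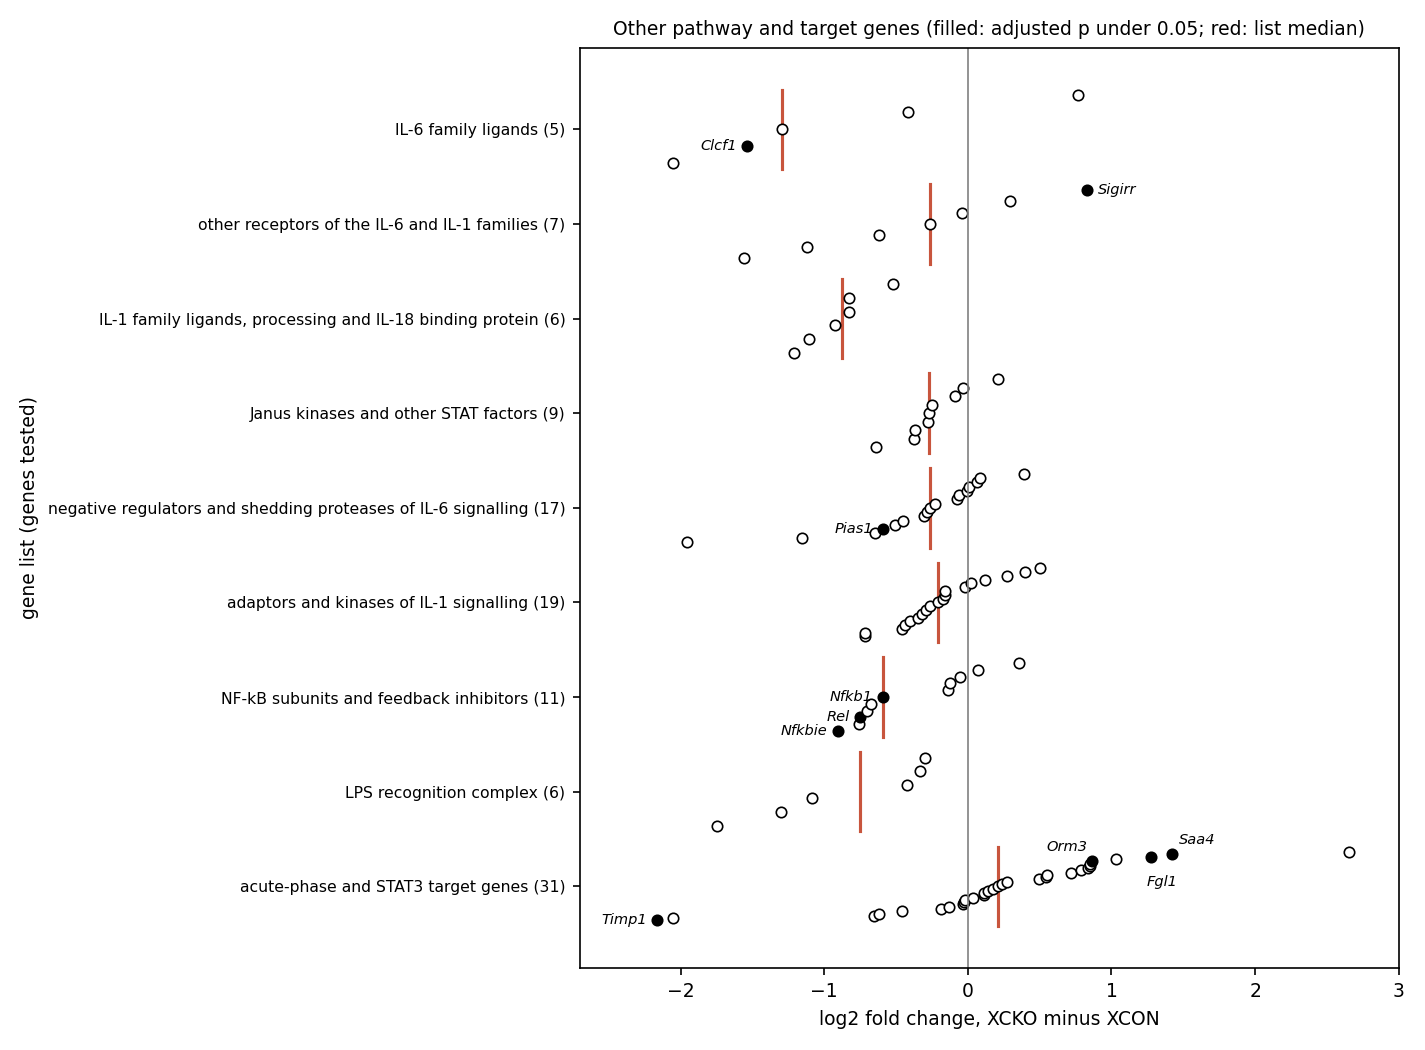
Log2 fold change (XCKO minus XCON) of each tested gene in the 8 pathway lists and the list of acute-phase and STAT3 target genes; filled points passed an adjusted p of 0.05 and red bars are list medians. Most points of the pathway lists lie left of 0, while 21 of the 31 acute-phase and target genes lie right of it.

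The genes whose pattern over the 6 libraries was most like that of each called member were found by the root-mean-square distance between centred log2 CPM values, among 9479 genes with a mean of at least 5 CPM. For Il1rn these were Lacc1 at a distance of 0.0722, Atp6v0d2 at 0.108 and Ifit1 at 0.138. Their mean levels went from 23.8 to 10.8 CPM, from 10.1 to 4.14 CPM and from 8.82 to 3.99 CPM (XCON to XCKO). For Lbp they were Enpep at 0.0580, Slc25a16 at 0.0601 and Timm23 at 0.0611, with mean levels going from 104 to 185 CPM, from 44.8 to 78.9 CPM and from 21.9 to 39.7 CPM. The libraries are the same 6 for every gene, so likeness here is a description of these values.

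Promoter windows of 250 bases before a RefSeq start were found for 9 members, 13 windows in all, and Lbp had no entry. Some windows held annotated exon bases of their own gene. These were all 250 bases for Osmr, 83 for the third Il1rn start, 77 for Socs3 and at most 13 in any other window. Both strands were searched for a STAT motif (TTCNNNGAA), an NF-kB motif (GGANTTTCC), a C/EBP motif (TTGCNNAA) and the XBP1 element of the unfolded protein response (TGACGTG). Of all 32851 windows in the same table, 7.02%, 1.07%, 9.56% and 1.65% held these motifs. Among the members' windows, 1 held a STAT match, 1 a C/EBP match, 0 an NF-kB match and 0 an XBP1 match. The stretches around the matches are shown because Socs3 is a textbook STAT3 target and Il1r1 was among the most variable members. They run 5′ to 3′ on the gene's strand, minus for Socs3 and plus for Il1r1, and the capitals mark the motif (RefSeq, GRCm38.p6).
Socs3, STAT match, chr11:117969482-117969551: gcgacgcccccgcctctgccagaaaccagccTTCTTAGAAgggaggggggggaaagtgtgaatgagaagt
Il1r1, C/EBP match, chr1:40224921-40224980: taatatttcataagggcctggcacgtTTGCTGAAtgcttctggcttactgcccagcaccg
A match describes these letters only, and no binding was measured.

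Some reads cannot be assigned with certainty. On the other strand, exons of Gm42809 share 242 bases with Il6ra, those of Stat5a share 72 bases with Stat3 and those of Gm20319 share 552 bases with Il1rap. The summed counts of the overlapping genes were 15, 2829 and 1755, beside 8803, 17716 and 20211 for the members. Il1rn and Lbp shared no exon base with another annotated gene.

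**Figure D5:**
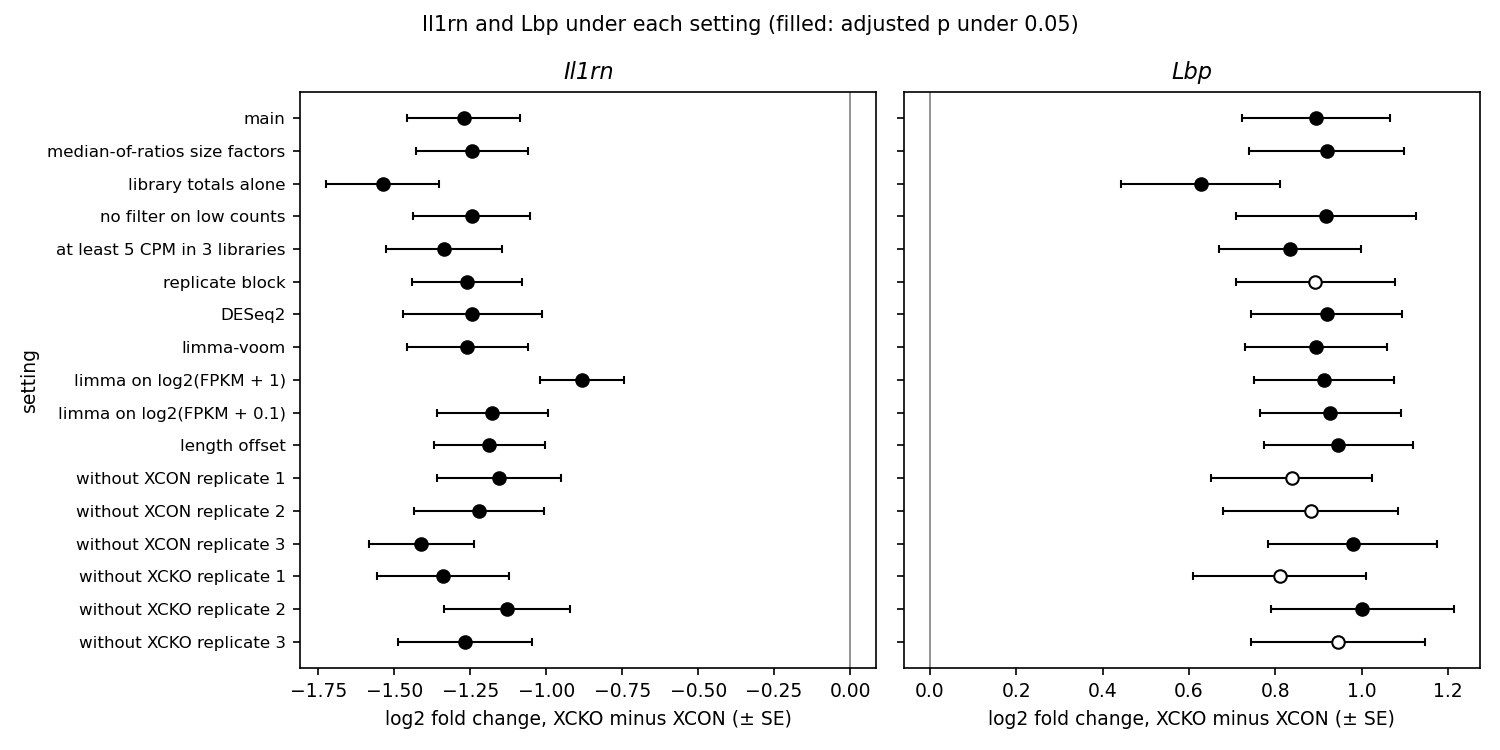
Log2 fold change (XCKO minus XCON) with SE of Il1rn (left) and Lbp (right) under the main setting and 16 alternatives; filled points passed an adjusted p of 0.05. Il1rn passed under all 16 alternatives and Lbp under 11 of them, with the same direction throughout for both.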

How the data were processed

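Total RNA of 6 hepatocyte libraries was made into sequencing libraries with a NEBNext Ultra kit, per the labels' protocols. The single table that the authors deposited holds raw counts of reads by Ensembl gene, FPKM values, gene length in bases, and their own comparison with group means (a normalised signal), log2 fold changes and p-values, per the file headers. Per the submitters' processing notes, Bowtie 0.12.2 was a tool and mm8 and mm10 were builds, with no role stated. The gene coordinates match GENCODE M21 (mm10) for all 10 members. Not given in the sources used here: the read counter, and whether strand was used.

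Counts were tested with edgeR 4.0.16 in R 4.3.3 (TMM scaling, filterByExpr, robust quasi-likelihood F test, group as the only term, n = 3 per group), with p-values adjusted over 14873 genes. Alternatives used other scalings and filters, DESeq2 1.42.0, limma 3.58.1 on counts and on log2(FPKM + 1) or log2(FPKM + 0.1) (FPKM of 1 or more required in 3 libraries), an offset for gene length, the replicate number as a block, and each library left out. The code was tested on simulated data.

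The members, gene lists and rule for naming were chosen with earlier results of these data known. The rule named all 10 members, Xbp1, up to 3 genes per list with the smallest p among those past 0.05 or else the 1 with the smallest p, and the 3 genes most like each called member. The 17 lists besides the members hold 183 genes. Neutrophil, cholangiocyte, lymphocyte and erythroid marker lists had 0 genes past 0.05 in edgeR's test (3, 5, 1 and 5 at an unadjusted p under 0.05; 2, 4, 1 and 5 in DESeq2; 1, 1, 0 and 0 in limma-voom).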

Additional observations from a re-analysis of the deposited data

How the results depend on the processing

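Over the 16 alternatives, Il1rn kept its direction and call (log2 fold change −1.54 to −0.88, adjusted p at most 0.0429), and Lbp kept its direction (0.63 to 1.00) and passed in 11. Members past 0.05 numbered 1 with the replicate block and 1 to 2 with a library left out. All genes past 0.05 numbered 2358 with library totals alone (326 higher and 2032 lower, against 775 and 603), 2160 with no filter on low counts, 322 with the replicate block, 2653 in DESeq2 and 309 to 810 with a library left out. Correlations of deviations between same-numbered libraries were 0.0554, 0.0765 and −0.168, and those between differently numbered libraries ran from −0.158 to 0.106. Because the deviations were taken within groups of 3, these values cannot decide whether replicate numbers pair the libraries. With the replicate block the adjusted p of Lbp was 0.0604, and 1 pathway gene passed as higher and 0 as lower. Pathway genes past 0.05 as lower, 5 in the report, numbered 14 in DESeq2, 2 with the length offset and 1 in limma on log2(FPKM + 1), and acute-phase and STAT3 target genes past 0.05 as higher, 3 in the report, numbered 9 in DESeq2 and 8 with no filter on low counts. Some log2 fold changes of members that did not pass changed sign: Stat3 was −0.17 with library totals alone and Il6st 0.12 with the length offset. With a library left out, Il6ra ranged from −0.023 to 0.61, Stat3 from −0.013 to 0.28, Socs3 from −0.69 to 0.19, Il1r1 from −0.88 to 0.27 and Lifr from −0.73 to 0.13. The cause of these changes was not tested. Of 160 member values under alternatives, 147 kept direction and side of the threshold. With 3 libraries per group, the intervals of Socs3, Il1r1 and Lifr were wide and limit what can be said of them.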
